A study of Mus musculus with 6 samples.

Results

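The genes that prepare peptides for MHC class I were examined in mouse colon epithelium with and without the Wnt co-activators BCL9 and BCL9L. The list held 10 genes, B2m, Tap1, Tap2, Tapbp, Psmb8, Psmb9, Psmb10, Psme1, Psme2 and Nlrc5. Its members were the probe sets, groups of short probes that read a transcript, whose annotation gives 1 gene symbol and that symbol is on the list. These were 15 of the 45101 probe sets on the array and covered 9 of the 10 genes. Psme2 had no such probe set, because the 1 probe set annotated to it lists another symbol as well. With 1 probe set a gene, the 9 genes were among 18193 tested.

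The knockout mice carried the genotype vil-Cre-Bcl9-/-/Bcl9l-/-, in which the villin promoter drives Cre recombinase in intestinal epithelium, and were compared with wildtype mice. All were 12 weeks old and of a mixed 129SvEv/C57BL/6/DBA/2 background. There were 3 knockout arrays, numbered 1 to 3 in the labels, from pools of 3, 2 and 2 mice, and 3 wild-type arrays, numbered 4 to 6, from pools of 3 mice each. Colon epithelium had been loosened with EDTA, shaken off and pelleted without a sort, so cells that come off with the epithelium were measured too. The labels name Cre for the knockouts alone, so Cre and loss of the co-activators cannot be told apart, and the H2 alleles carried by the mixed-background mice are not given.

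Class I molecules show peptides from inside the cell to CD8 T cells. The proteasome cuts proteins into peptides, and interferon-gamma exchanges its constitutive catalytic subunits PSMB5, PSMB6 and PSMB7 for PSMB8, PSMB9 and PSMB10, which gives the immunoproteasome. PSME1 and PSME2 form its PA28 activator, TAP1 and TAP2 pump peptides into the endoplasmic reticulum, tapasin (Tapbp) holds the transporter next to empty class I molecules, and B2M is the light chain of the finished complex. NLRC5 is a nuclear transactivator of class I genes, with binding at class I promoters through the RFX and NF-Y factors. In the intestine epithelial cells carry class I, and interferon from lymphocytes raises it.

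Promoter sequence is shown for 3 of the genes that differed most between arrays and for B2m, because these genes share interferon control as background. The sequences are from RefSeq on build GRCm38.p6, from which promoter windows were matched by symbol for 7 of the 9 measured genes. Psmb9, Tap1, Psmb8 and Tap2 lie side by side in that order on chromosome 17 in this annotation. Psmb9 and Tap1 run in opposite directions from starts 226 bases apart, and the stretch between the starts is printed. For B2m and Psmb8 the 250 bases before the start are given. Capitals mark GAAA, 2 bases of any kind and GAAA (the interferon-stimulated response element, ISRE), TTCNNNGAA (the STAT element, GAS) and CCAAT (the NF-Y box), each searched on both strands.
B2m, chr2:122147437-122147686, plus strand: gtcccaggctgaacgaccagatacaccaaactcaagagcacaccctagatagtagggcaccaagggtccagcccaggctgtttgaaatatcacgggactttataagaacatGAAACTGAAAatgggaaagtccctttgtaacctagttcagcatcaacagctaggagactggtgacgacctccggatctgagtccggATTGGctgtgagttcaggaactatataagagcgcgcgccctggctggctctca
Psmb8, chr17:34197945-34198194, plus strand: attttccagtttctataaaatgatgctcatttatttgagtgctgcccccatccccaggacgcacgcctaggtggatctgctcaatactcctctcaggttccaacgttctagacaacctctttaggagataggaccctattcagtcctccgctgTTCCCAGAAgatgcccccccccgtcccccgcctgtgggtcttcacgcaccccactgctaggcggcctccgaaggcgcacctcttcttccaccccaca
Psmb9 to Tap1, chr17:34187331-34187555, plus strand: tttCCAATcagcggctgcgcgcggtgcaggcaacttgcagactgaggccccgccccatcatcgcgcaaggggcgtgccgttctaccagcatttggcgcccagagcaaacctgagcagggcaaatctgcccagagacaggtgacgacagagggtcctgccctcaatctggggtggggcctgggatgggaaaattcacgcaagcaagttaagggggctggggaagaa

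Over windows of 300 bases, from 250 before the start to 50 after it, the ISRE letters stood in 2 of these 7 genes, B2m and Psme1, against 3.44% of all 32851 windows. The GAS letters stood in 1, Psmb8, against 8.30%. A CCAAT box stood in 4 of the 7 genes, B2m, Tap1, Tapbp and Psmb9, against 37.4%, and the box counted for Tap1 and for Psmb9 is the same one in their shared stretch. No motif overlapped another in the sequences printed. A match describes letters in the window and is not evidence of binding.

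Some features of the arrays bear on every value that follows. All values are log2 RMA expression values, on which a step of 1 is a 2-fold step, and array medians ran from 5.44 to 5.58. The leading principal component over all genes held 38.7% of the variance and put wild type 6 at 50.7 and the other 5 arrays between -22.6 and -1.26. The targeted genes did not check the labels: Bcl9 averaged 7.28 ± 0.26 in knockout and 7.17 ± 0.29 in wild type and Bcl9l 8.15 ± 0.10 in knockout and 7.94 ± 0.24 in wild type (SD, n = 3 each), and the sources used here do not place their probes inside or outside the deleted parts. The 14 colon epithelium markers, all measured, had summed levels of 16.6 to 16.7 in knockout and 16.6 to 16.7 in wild type on the log2 scale, with Epcam at 13.50 to 13.72 in knockout and 13.62 to 13.68 in wild type.

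None of the class I processing genes differed between genotypes beyond the spread between pools. limma called 0 of the 9 genes, against 0% of all 18193 genes, at an adjusted p of 0.05. At an unadjusted p under 0.05 the count was again 0 of 9, against 4.71% of all genes, 2.69% higher and 2.02% lower in knockout. Knockout and wild-type values overlapped for all 9, where groups that do not overlap made up 10.3% of all genes, 5.49% higher and 4.83% lower in knockout. The member differences, knockout minus wild type, lay above 0 for 6 genes, against 52.2% of all genes, and below 0 for 3, against 47.8%. Their median was 0.07, against 0.01 for all genes. It turned to -0.18 without knockout 3, -0.13 without wild type 4 and -0.0082 without wild type 5. Without wild type 6, 3 genes on the whole array were called, none of them a member. Adjusted p-values over all genes ran from 0.971 to 0.997 for the 9 members. In the fit over 45037 probe sets, 0 of the 15 member probe sets were called, against 0% of all probe sets, and none had groups that did not overlap, against 9.69%.

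B2m, the class I light chain, measured 13.08, 13.34 and 13.62 in knockout 1, 2 and 3, against 13.17, 13.38 and 13.61 in wild type 4, 5 and 6. The groups covered the same span, and the lowest knockout lay just below the lowest wild type. The difference was -0.04 (SE 0.18, 95% interval -0.47 to 0.39, limma adjusted p = 0.992). The other B2m probe set read 12.86, 13.23 and 13.43 in the knockouts, against 12.96, 13.16 and 13.40 in wild type, so both probe sets ordered the arrays nearly alike. Its difference was 0.001 in the fit over all probe sets.

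Of the peptide transporter, Tap1 read 8.52, 9.89 and 9.93 in knockout 1, 2 and 3, against 8.91, 9.15 and 10.23 in wild type 4, 5 and 6. Knockout 1 was the lowest of the 6 arrays and wild type 6 the highest, and the groups overlapped widely. The difference was 0.02 (SE 0.48, interval -1.12 to 1.16, limma adjusted p = 0.997) and turned to -0.04 with cyclic loess scaling, and a change of about 2-fold either way lies inside the interval. Tap1 has 3 other probe sets. The one at a mean of 5.95 read 5.86, 5.87 and 6.17 in the knockouts, against 6.07, 5.84 and 5.90 in wild type, a range of 0.33 over the arrays where the bright probe set had 1.71. The remaining Tap1 probe sets had means of 2.74 and 2.39, far under the array medians, and differed by 0.16 and -0.14. The probe sets of Tap1 therefore disagree on how far the arrays lie apart, and only the brightest one shows the wide spread.

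Tap2, the partner subunit of the transporter, read 7.21, 7.98 and 8.18 in knockout 1, 2 and 3, against 7.78, 7.77 and 8.10 in wild type 4, 5 and 6. Knockout 1 stood well below the other 5 arrays, which lay close together. The difference was -0.09 (SE 0.26, interval -0.71 to 0.52, limma adjusted p = 0.987). Without knockout 1 it was 0.20.

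Tapbp, which encodes tapasin, read 11.33, 11.62 and 11.56 in knockout 1, 2 and 3, against 11.31, 11.36 and 11.57 in wild type 4, 5 and 6. This was the narrowest spread of any member, 0.31 between the highest and the lowest array. The difference was 0.09 (SE 0.13, interval -0.22 to 0.40, limma adjusted p = 0.972). The dimmer Tapbp probe set read 8.30, 8.94 and 9.28 in the knockouts, against 8.54, 8.71 and 9.002 in wild type, with the same mean difference of 0.09 but a spread of 0.98 over the arrays.

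Among the immunoproteasome subunits, Psmb8, the counterpart of Psmb5, read 10.35, 11.06 and 11.52 in knockout 1, 2 and 3, against 10.26, 10.36 and 11.58 in wild type 4, 5 and 6. Knockout 2 and 3 stood with wild type 6 above the other arrays. The difference of 0.24 (SE 0.42, interval -0.77 to 1.25, limma adjusted p = 0.977) was well inside its error and ran from -0.028 without knockout 3 to 0.67 without wild type 6. A dim Psmb8 probe set, which may cross-hybridise by its name, read 3.27, 3.67 and 4.21 in the knockouts, against 3.30, 3.26 and 3.80 in wild type, and differed by 0.27.

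Psmb9, the counterpart of Psmb6 and the gene that faces Tap1 across the printed stretch, read 10.65, 11.26 and 11.98 in knockout 1, 2 and 3, against 10.74, 10.99 and 11.87 in wild type 4, 5 and 6. Knockout 3 and wild type 6 were the high arrays and knockout 1 and wild type 4 the low ones. The difference was 0.10 (SE 0.40, interval -0.86 to 1.06, limma adjusted p = 0.991).

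Psmb10, the counterpart of Psmb7, varied far less. It read 10.78, 10.77 and 10.96 in knockout 1, 2 and 3, against 10.61, 10.66 and 10.85 in wild type 4, 5 and 6. The groups overlapped through wild type 6 alone, and the difference was 0.13 (SE 0.12, interval -0.16 to 0.41, limma adjusted p = 0.971). Psme1, the alpha subunit of PA28, read 11.78, 11.94 and 12.06 in the knockouts, against 11.71, 11.79 and 12.08 in wild type, a difference of 0.07 (SE 0.14, interval -0.27 to 0.40, limma adjusted p = 0.979).

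Nlrc5, the transactivator, spread most of all the members. It read 4.12, 7.67 and 8.07 in knockout 1, 2 and 3, against 6.65, 6.47 and 9.07 in wild type 4, 5 and 6. Knockout 1 alone was far below the rest, under the median of its array, and wild type 6 alone was above every knockout. The knockout mean was 6.62 ± 2.18 and the wild-type mean 7.40 ± 1.45 (SD, n = 3 each), a difference of -0.78 (SE 1.16, interval -3.52 to 1.96, limma adjusted p = 0.972). Without knockout 1 the difference was 0.47 and without wild type 6 it was 0.06, so its sign rests on single arrays. Between knockout 3 and knockout 1 the reading differed 15.5-fold, with no detection call to say whether the lower one was above background.

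**Figure D1:**
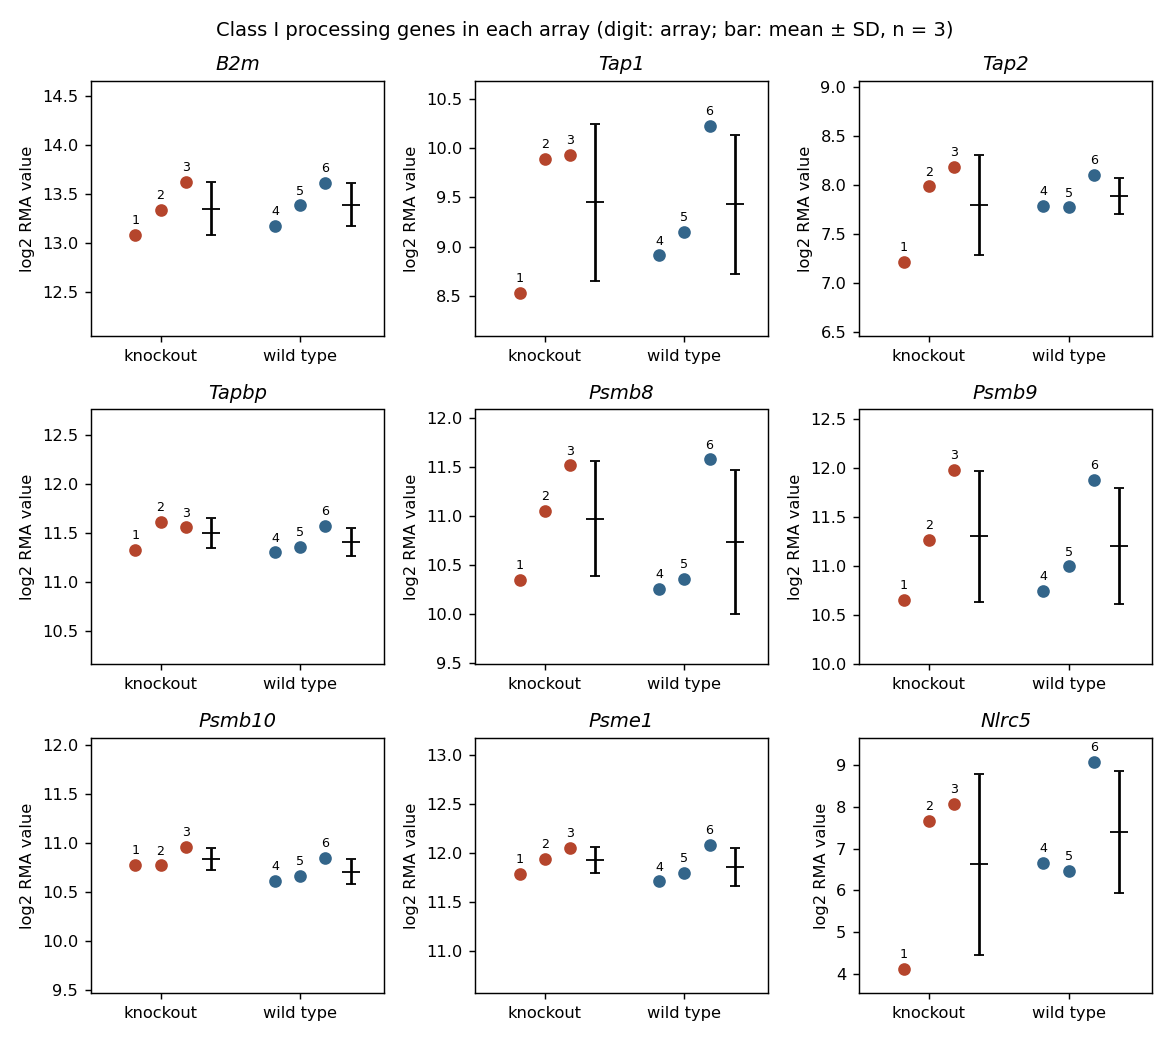
Log2 RMA values of the 9 measured genes in each of the 3 knockout arrays (left, red, digits 1 to 3) and 3 wild-type arrays (right, blue, digits 4 to 6), with mean ± SD (n = 3) as black bars and an axis per gene. The groups overlap in every panel, wild type 6 is the highest wild-type array in all 9, and Nlrc5 runs from 4.12 in knockout 1 to 9.07 in wild type 6.

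**Figure D2:**
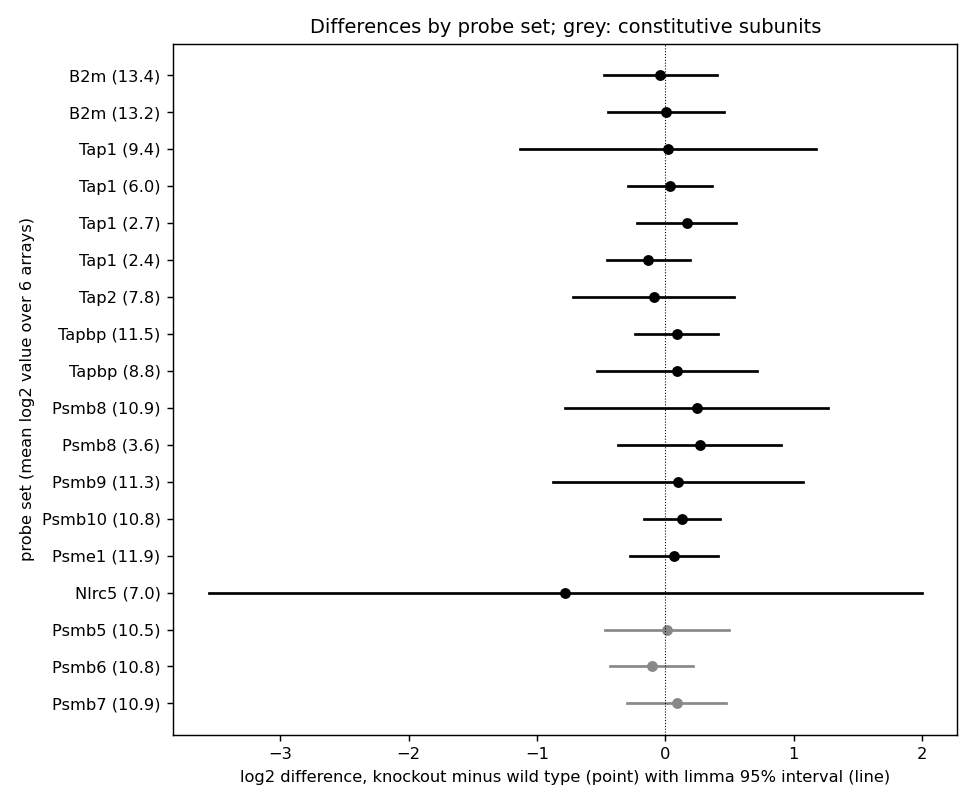
Log2 difference, knockout minus wild type, with its limma 95% interval for each of the 15 member probe sets (black) and for the constitutive subunits Psmb5, Psmb6 and Psmb7 (grey), all from the fit over all probe sets. Every interval crosses 0, and the interval of Nlrc5 is the widest.

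By brightest probe set, the members varied together from array to array within each genotype. Among the wild-type arrays, wild type 6 was the highest in 9 of 9 genes, as in 24.1% of all genes. Among the knockouts, knockout 1 was the lowest in 8 of 9 genes, as in 31.1% of all genes, and knockout 3 was the highest in 8 of 9, as in 32.0%. The exceptions were Psmb10, lowest in knockout 2, and Tapbp, highest in knockout 2 by its brightest probe set. Over all 6 arrays, knockout 1 was the lowest in 5 of 9 genes, as in 15.8% of all genes. Wild type 4 was the lowest in the other 4, as in 10.4% of all genes. The dimmer Tapbp probe set was highest in knockout 3, at 9.28. The dimmer Tap1 probe sets had wild type 4 or 5, and not 6, as the highest wild-type array. Of all 15 member probe sets, knockout 1 was the lowest of the 6 arrays in 7 and wild type 4 in 5. Knockout 3 was the highest in 8 and wild type 6 in 4. The level of the list in an array, taken as the median of its genes after each gene's 6-array mean was subtracted, was -0.50, 0.14 and 0.34 in knockout 1, 2 and 3, against -0.20, -0.11 and 0.26 in wild type 4, 5 and 6. Levels overlapped between genotypes, and the 3 knockouts spread over more than the wild-type arrays did. Knockout 1 is also the only knockout pool of 3 mice, and the part of pool size in its low level was not tested.

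The members differed in how far apart the arrays lay. From the highest to the lowest array the range was 4.96 for Nlrc5, 1.71 for Tap1, 1.33 for Psmb9, 1.32 for Psmb8 and 0.97 for Tap2. It was 0.54 for B2m, 0.37 for Psme1, 0.35 for Psmb10 and 0.31 for Tapbp, where the median of all genes was 0.52. Nlrc5 had one of the widest ranges on the array, with 22 of 18193 genes at or above it, itself included. Without knockout 1 its range was 2.61, and 215 genes were at or above it. By brightest probe set, the 4 neighbours on chromosome 17, Psmb9, Tap1, Psmb8 and Tap2, were thus all wider than the median gene. Tapbp, also on chromosome 17, was the narrowest member by that measure. Its other probe set, at a mean of 8.80, had a range of 0.98, so the narrowness of Tapbp rests on the probe set. On chromosome 8, Nlrc5 was wide and Psmb10 narrow.

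The constitutive catalytic subunits ordered the arrays otherwise. Psmb5 read 10.85, 10.09 and 10.48 in knockout 1, 2 and 3, against 10.47, 10.58 and 10.33 in wild type 4, 5 and 6, so knockout 1 was its highest array. Psmb6 read 10.87, 10.56 and 10.79 in the knockouts, against 10.98, 10.85 and 10.71 in wild type. Psmb7 read 10.96, 10.64 and 11.17 in the knockouts, against 10.92, 10.87 and 10.72 in wild type. Wild type 6, the highest wild-type array for each immunoproteasome subunit, was thus the lowest wild-type array for each constitutive one. For all 3, the lowest of the 6 arrays was knockout 2. Over all genes, wild type 6 was the lowest of the 6 arrays in 30.8%, more often than any other array. It was therefore the lowest wild-type array in at least that share. A wild type 6 below the other wild-type arrays is thus not particular to the constitutive subunits. Their differences were 0.01 (SE 0.20), -0.11 (SE 0.13) and 0.09 (SE 0.16), and none was called (smallest limma adjusted p = 0.971).

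Most other genes of the proteasome differed little between arrays: 4 of 16 core and assembly genes and 2 of 19 regulator and activator genes had a range above the all-gene median of 0.52. Of the 16 further 20S core and assembly genes 0 were called and 0 had an unadjusted p under 0.05, with a median difference of 0.004 and a median range of 0.33. Psmg2, an assembly chaperone, had the widest range of these, 1.15, and differed by 0.44 (SE 0.25), while its other probe sets differed by 0.07 and -0.24, and the core subunit Psma7 differed by -0.16 (SE 0.12). Of 20 genes for the 19S regulator and the other activators 19 were measured and 0 were called, with 1 at an unadjusted p under 0.05. That gene was Psmd3, a lid subunit, at 9.44, 9.29 and 9.76 in the knockouts, against 9.14, 9.19 and 9.14 in wild type (0.34, SE 0.14, limma adjusted p = 0.953). Psme4, the PA200 activator, differed by 0.26 (SE 0.12), and its 5 other probe sets by -0.32 to 0.27. Groups did not overlap, with knockout higher, for Psmd3 and Psme4, 2 of the 19 genes, against 5.49% of all genes.

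**Figure D3:**
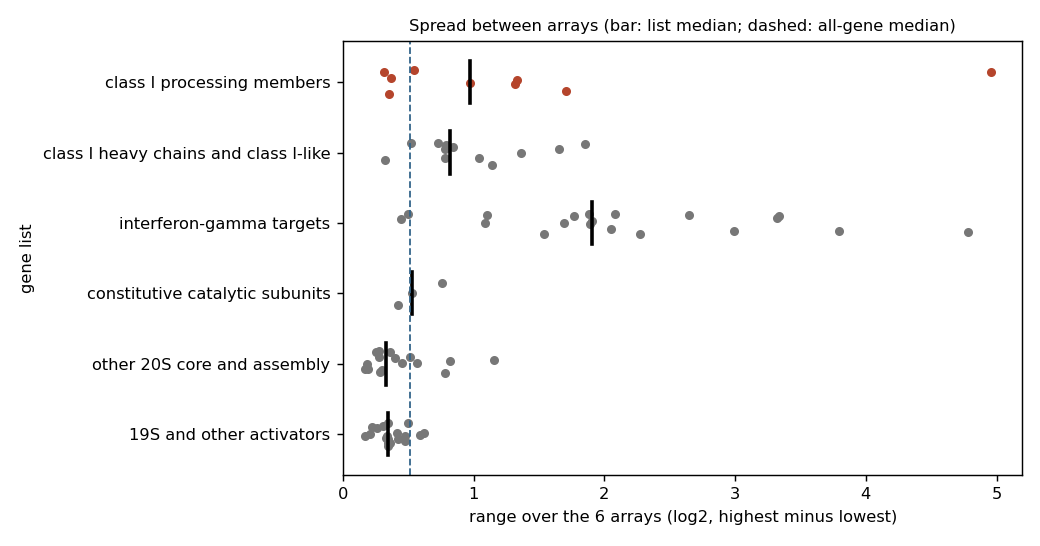
Range over the 6 arrays in log2 units for each gene of the class I processing list (red) and of 5 related lists (grey), with list medians as black bars and the median of all genes, 0.52, as a dashed line. Nlrc5 at 4.96 is the widest member, and the 20S core and 19S lists have medians of 0.33 and 0.35.

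Downstream of processing, 12 of 23 class I heavy chain and class I-like genes were measured by probe sets with 1 symbol, and 0 were called. Their median difference was -0.10, with 4 above and 8 below 0, against 47.8% of all genes below 0. None had an unadjusted p under 0.05. The classical heavy chains H2-K1 and H2-D1 were picked with their values in view, beyond the genes named by rule. H2-K1 read 12.41, 12.82 and 13.13 in knockout 1, 2 and 3, against 12.73, 12.85 and 13.13 in wild type 4, 5 and 6. H2-D1 read 12.36, 12.51 and 12.88 in the knockouts, against 12.46, 12.42 and 12.78 in wild type. Both were lowest in knockout 1 and high in knockout 3 and wild type 6, as B2m was, and signal of near-identical H2 genes may mix on these probes. The list as a whole was not high in wild type 6 alone among the wild-type arrays: its levels were -0.27, -0.04 and 0.26 in the knockouts, against -0.11, 0.08 and 0.07 in wild type, and 4 of its 12 genes were highest in wild type 6. H2-M3, which presents formylated peptides, differed by -0.25 (SE 0.23), and the thymus leukaemia antigen H2-T3 by 0.31 (SE 0.28). That H2-T3 probe set was dim, at a mean of 5.06, under the array medians. It read 5.01, 5.89 and 4.75 in the knockouts, against 4.96, 4.84 and 4.91 in wild type, so only knockout 2 was clearly high. The other H2-T3 probe set differed by -0.04.

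Among 9 measured genes of peptide loading and trimming, 0 were called and 7 differences lay above 0, against 52.2% of all genes, with a median of 0.04. Erap1, the aminopeptidase that trims peptides in the endoplasmic reticulum, read 8.43, 8.43 and 8.73 in the knockouts, against 7.92, 8.37 and 8.31 in wild type. Groups did not overlap, with knockout higher, for Erap1 and Canx, 2 of the 9 genes, against 5.49% of all genes. Canx differed by 0.12 (SE 0.11). The difference of Erap1 was 0.33 (SE 0.16, limma adjusted p = 0.953), with 0.48 in its other probe set. Tapbpl, the tapasin-related editor TAPBPR, differed by 0.27 (SE 0.23) and by 0.08 in its other probe set.

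Upstream, 15 of 16 genes of interferon signalling were measured and 0 were called. The interferon-gamma receptor gene Ifngr1 read 9.99, 10.41 and 10.23 in the knockouts, against 10.18, 10.02 and 10.24 in wild type. The interferon lambda receptor Ifnlr1 differed by 0.32 (SE 0.16) with groups that did not overlap, as in 5.49% of all genes with knockout higher. Socs3, an inhibitor of cytokine signalling induced by STAT3, was the 1 gene of this list with an unadjusted p under 0.05. It read 7.82, 8.72 and 7.54 in the knockouts, against 6.65, 6.24 and 7.70 in wild type, a difference of 1.16 (SE 0.44, limma adjusted p = 0.953), and its 2 other probe sets differed by 1.35 and 1.01. Irf1, the factor that binds ISRE letters in class I genes, was chosen after its values were seen, as was Ifngr1. Irf1 read 10.30, 11.27 and 10.98 in knockout 1, 2 and 3, against 10.49, 10.33 and 11.08 in wild type 4, 5 and 6, with knockout 2 and 3 and wild type 6 the 3 high arrays.

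The partners of NLRC5 at the promoter were measured too. Of 8 RFX, NF-Y, CREB and CIITA genes 0 were called, and the median difference was 0.02. Rfxap differed by -0.31 (SE 0.18), Creb1 by 0.23 (SE 0.14) and Nfyc by 0.19 (SE 0.13). Probe sets disagreed for Rfxap and Creb1: the other Rfxap probe set differed by 0.22, and the other Creb1 probe sets by -0.17 to 0.05. Ciita, the class II counterpart of Nlrc5 and chosen after its values were seen, read 5.24, 6.11 and 6.84 in knockout 1, 2 and 3, against 5.15, 5.36 and 7.16 in wild type 4, 5 and 6. Like Nlrc5 it was high in knockout 2 and 3 and in wild type 6, but its knockout 1 value was level with the lower wild-type arrays. The levels of the 8 genes were -0.17, 0.09 and 0.20 in the knockouts, against 0.01, -0.07 and -0.01 in wild type, and 1 of the 8 was highest in wild type 6.

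Array levels of interferon targets were set beside those of the members. The 19 measured interferon-gamma targets had levels of -0.96, 0.44 and 0.44 in knockout 1, 2 and 3, against -0.61, -0.09 and 0.76 in wild type 4, 5 and 6. Both lists were thus below 0 in knockout 1 and in wild type 4 and 5, and above 0 in knockout 2 and 3 and in wild type 6. In this list 0 genes were called and 0 had an unadjusted p under 0.05, with a median difference of 0.04 and a median range of 1.90. The ubiquitin-like gene Ubd differed by 0.67 (SE 0.58), the guanylate-binding protein Gbp3 by -0.71 (SE 0.40) and the chemokine Cxcl10 by -0.52 (SE 0.36). Wars differed by 0.23 (SE 0.15) with groups that overlapped. Its other probe sets differed by 0.21 to 0.33 with groups that did not overlap, as in 9.69% of all probe sets. The class II invariant chain Cd74, chosen after its values were seen, read 10.29, 11.98 and 12.94 in knockout 1, 2 and 3, against 10.22, 9.60 and 12.84 in wild type 4, 5 and 6.

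The 19 measured type I interferon targets were ordered otherwise. Their levels were -0.76, -0.08 and -0.22 in knockout 1, 2 and 3, against -0.31, 0.62 and 0.75 in wild type 4, 5 and 6. Wild type 5 was thus high for these genes and slightly below 0 for the class I members. All 19 differences lay below 0, against 47.8% of all genes, with a median of -0.82. Of the 19 genes 0 were called while 5 had an unadjusted p under 0.05, against 2.02% of all genes in that direction. Ifi27l2a read 7.99, 8.68 and 9.13 in the knockouts, against 9.96, 11.18 and 10.96 in wild type (-2.10, SE 0.39, limma adjusted p = 0.953), and Irf7, a factor of the type I response, differed by -0.71 (SE 0.18). Whether the members and these targets differ in their response to genotype was not tested.

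**Figure D4:**
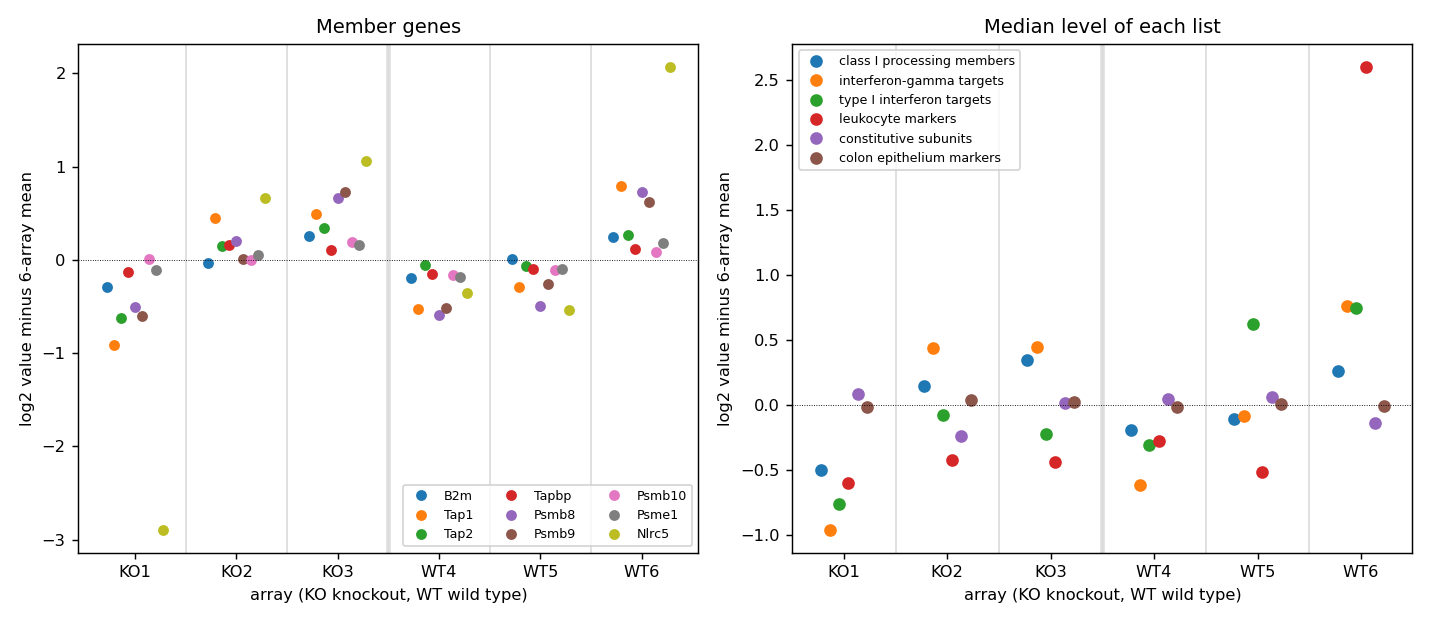
Left, each member gene's log2 value minus its mean over the 6 arrays, by array; right, the median of such values for 6 gene lists, by array. Members other than Psmb10 are below 0 in knockout 1, and all are below 0 in wild type 4 and above 0 in knockout 3 and wild type 6. Type I interferon targets are high in wild type 5 and 6. Leukocyte markers reach 2.60 in wild type 6 and stay below 0 in the other 5 arrays.

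Immune cells carry much class I and immunoproteasome, so their markers were set beside the members. In a bulk sample, fewer cells of a type and less RNA per cell cannot be told apart. The 10 general leukocyte markers, all measured, had levels of -0.60, -0.43 and -0.44 in knockout 1, 2 and 3, against -0.28, -0.51 and 2.60 in wild type 4, 5 and 6. Their summed level ran from 10.9 to 11.1 in knockout and from 10.9 to 13.8 in wild type on the log2 scale. Ptprc, which encodes CD45, read 6.63, 6.61 and 6.84 in the knockouts, against 6.93, 7.28 and 10.55 in wild type. Leukocyte markers were thus high in wild type 6 together with the members, whereas knockout 3 had a member level of 0.34 at a leukocyte level of -0.44. By summed level, lymphocyte markers stood higher in knockout 3 than in the other knockouts. The summed T cell and intraepithelial lymphocyte level was 9.15, 8.87 and 9.67 in knockout 1, 2 and 3, against 9.54, 9.62 and 10.3 in wild type 4, 5 and 6. The summed B and plasma cell level was 8.44, 8.86 and 9.45 in the knockouts, against 9.48, 8.36 and 12.5 in wild type. Taken as a median, the T cell level was -0.39, -0.50 and -0.05 in knockout 1, 2 and 3. The B and plasma cell median was -0.83, -0.62 and -0.76, so it was not highest in knockout 3. Single markers were mixed: Jchain rose to 8.74 in knockout 3, while Ms4a1 and Zap70 were lowest of the knockouts there. Gzma, a granzyme of cytotoxic lymphocytes chosen after its values were seen, was highest of the 6 arrays in knockout 3, at 7.61. The part of lymphocytes in the member level of knockout 3 was not tested.

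These sums covered 13 of 14 T cell and intraepithelial lymphocyte markers and 11 of 12 B and plasma cell markers. Of the 13 T cell markers, 3 had an unadjusted p under 0.05, all lower in knockout, against 2.02% of all genes. The 12 macrophage and dendritic cell markers ran from 9.78 to 10.9 in knockout and from 9.39 to 11.9 in wild type, and the 10 fibroblast and endothelial markers from 8.89 to 9.60 in knockout and from 9.53 to 10.9 in wild type. Of the 10 fibroblast and endothelial markers, 3 were lower in knockout at an unadjusted p under 0.05, and 4 had groups that did not overlap with knockout lower, against 4.83% of all genes. limma called none of the markers. All 4 sums were highest in wild type 6. RMA values have no 0 and no detection calls were used, so no marker can be given as absent. The part of these cells in the member values of wild type 6 was not tested beyond leaving that array out, which moved the median member difference to 0.18 and left 0 of 9 members called.

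Outside the list, the genes whose centred profile over the 6 arrays lay nearest to the mean profile of the 9 members were sought by root mean square distance. They were Il18bp, the secreted inhibitor of interleukin 18, at 0.12, Stat2, the interferon signalling factor, at 0.12, Dennd4a at 0.13, Spats2l at 0.14 and 2210407C18Rik at 0.15. Il18bp read 7.09, 7.79 and 7.89 in knockout 1, 2 and 3, against 7.12, 7.28 and 8.03 in wild type 4, 5 and 6. The members themselves lay between 0.17 for Psmb9 and 1.15 for Nlrc5 from that mean, and the median of all other genes was 0.50. That mean is not the median level given above, and Nlrc5 weighs heavily in it. The mean was -0.67 in knockout 1 and 0.57 in wild type 6, where Nlrc5 stood at -2.89 and 2.07. The search was not repeated without Nlrc5. Likeness over 6 arrays is a description, since all 18193 genes were searched on the same arrays.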

How the data were processed

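RNA of pooled colon epithelium (30 ng, amplified by the NuGEN WT-Ovation pico method) was read on Affymetrix mouse expression arrays, per the labels' protocols. The deposited values are log2 expression made with RMA, per the submitters' processing notes, with no version; they ran from 1.78 to 14.4. Scan dates and detection calls were not used here. Arrays have no read depth, and 3 per group limit the precision.

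Of 45101 probe sets, 34958 had 1 symbol, 932 several and 9211 none, and 64 were controls. A gene was represented by its brightest probe set, and dim genes were kept. The genotypes were tested in R 4.3.3 by limma 3.58.1 (two-sided moderated test from lmFit and eBayes without covariates, Benjamini-Hochberg over all genes or all probe sets, threshold 0.05) and checked on simulated data. Each array is a separate pool of mice, so p-values measure the spread between pools.

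Every member, the constitutive subunits and the 5 nearest profiles were named. The rule also gave up to 4 genes per related list with the smallest unadjusted p, and only some of these are described. Among those not described are Mr1, Hfe, Irf2, Socs1, Ganab, Xaf1 and Ifit1. Other genes are said to be chosen afterwards, and the marker examples Ptprc and Epcam were too. The members and lists were chosen with earlier results of these data known. List genes counted as not measured had no probe set with that symbol alone and were not analysed here. Alternatives were cyclic loess, brighter features, averaging the probe sets of a gene, dropping _x_at and _s_at probe sets, robust estimation with an intensity trend, array weights and leaving out each array.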

Additional observations from a re-analysis of the deposited data

How the results depend on the processing

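No member gene was called under any of the 12 alternatives run. The number of genes called over the whole array was 0 to 3 when each array was left out, and of probe sets 0 to 3, with 3 in each case without wild type 6. The median member difference ran from -0.18 (without knockout 3) to 0.20 (without knockout 1). Leaving out each array in turn gave ranges of -0.18 to 0.093 for B2m, -0.24 to 0.48 for Tap1, -0.29 to 0.20 for Tap2, -0.028 to 0.67 for Psmb8, -0.24 to 0.43 for Psmb9, -0.0093 to 0.18 for Psme1 and -1.51 to 0.47 for Nlrc5, so these 7 changed sign. Tapbp (0.03 to 0.18) and Psmb10 (0.07 to 0.20) kept theirs. Cyclic loess put Tap1 at -0.038, and array weights put B2m at 0.087 and Tap2 at 0.050. Array weights also moved Nlrc5 to -0.033, Psmb8 to 0.58, Psmb9 to 0.42, Tap1 to 0.35, Psme1 to 0.15, Tapbp to 0.15 and the median member difference to 0.15, each by over 1.5 times, and cyclic loess moved Tap2 to -0.17 and B2m to -0.018. Averaging the probe sets of a gene moved B2m to -0.019. The cause was not tested. No paired analysis was possible because the knockout and wild-type arrays share no replicate numbers in the labels. Without detection calls, the lowest readings, among them Nlrc5 in knockout 1, have no known distance from background.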
